A study of Mus musculus with 3 samples.

Results

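The genes described here are 38 members of the ATF4 pathway, the transcriptional arm of the integrated stress response. They comprise 10 stress factors and regulators, 10 enzymes of amino acid and folate metabolism, 7 amino acid transporters and 11 aminoacyl-tRNA synthetases. They were found by symbol in tables of 43280 genes. The list was chosen by pathway, but after the count levels of these same libraries had been seen, so the differences between libraries below are a description. All 38 symbols were present, and all 38 passed the expression floor that 12127 genes passed, a mean level of at least 5 CPM (counts scaled to a common library total). RNA was sequenced from primary skeletal mesenchyme cells of E15.5 mouse embryos, called calvarial in the series' design. There was 1 library for each of 3 genotypes of Ctnnb1, the beta-catenin gene. The control was beta-catenin fx/fx without Cre. The cKO group carried fx/fx with Dermo1-Cre, in which the Twist2 gene drives the recombinase in mesenchyme. The dTF-cKO group carried fx/dm and Dermo1-Cre; dm is not explained in the labels, and the series' name for this group is bcat-dTF-Dermo1-cKO. No fx/dm library without Cre was analysed here, and every library carries at least 1 floxed allele. The labels do not say how many embryos went into a library. With 1 library per genotype no test of a genotype was possible, and intervals in parentheses after a fold are exact 95% intervals for counting error between 2 libraries.

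In the integrated stress response, kinases that sense unfolded protein, amino acid shortage, haem shortage or double-stranded RNA phosphorylate eIF2, which slows translation in general and lets ATF4 be translated from an mRNA with upstream open reading frames. ATF4 then binds DNA with C/EBP family partners and turns on genes for amino acid synthesis, import and tRNA charging, together with feedback regulators. In osteoblasts ATF4 is also known as a factor of terminal differentiation and of the amino acid supply for collagen synthesis. Because ATF4 is controlled largely at translation, its mRNA level does not measure the protein.

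Library totals ran from 2678457 to 3634819 counts. A gene at 0 could have held up to 3 counts, which are 0.839, 1.06 and 1.07 CPM in control, cKO and dTF-cKO. Genes that mark cell types differed between the libraries. A list of 12 osteoblast genes took 18.3%, 4.16% and 0.800% of counts in that order. The 14 epidermis genes took 0.0160%, 2.44% and 1.36%, the 12 skeletal muscle genes 0.201%, 0.0351% and 0.00138%, and the 11 erythroid genes 0.645%, 0.577% and 1.54%. Of these defining markers, 1 epidermis gene was at 0 in the control, 1 erythroid gene in each Cre-carrying library and 2 muscle genes in the dTF-cKO. Pdgfra and Prrx1, genes of skull mesenchyme, had 1212, 621 and 119 counts and 1146, 598 and 114 counts in the same order, so the defining genes of the labelled tissue were present in all 3 libraries and lowest in the dTF-cKO. Ctnnb1 itself had 3669, 2106 and 1236 counts, or 1026, 745 and 442 CPM, which does not separate the floxed, recombined and dm alleles. Xist had 1233, 0 and 2 counts and 4 Y-linked genes summed to 0, 362 and 444, so sex-linked expression and Cre differed together. In bulk libraries, fewer cells of a type and less RNA per cell cannot be told apart.

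Most of the ATF4 pathway genes were higher in the dTF-cKO library than in both others under edgeR's TMM scaling, though their medians turned negative under a ribosomal protein scaling that is described after these counts. The cKO median lay near 0 against the control. Summed over the 38 genes they took 0.286%, 0.279% and 0.474% of counts, control first and dTF-cKO last. The dTF-cKO was the highest library for 24 of 38 genes, the control for 11 and the cKO for 3. Of all measured genes, 43.0% were highest in the dTF-cKO, 30.6% in the control and 26.3% in the cKO, so the 11 are near the background. Between the dTF-cKO and the control, 15 of 38 were at least 2-fold higher and 2 at least 2-fold lower, against 19.5% and 20.9% of all measured genes. Their median log2 difference was 0.71, against 0.055 over all measured genes. Between the cKO and the control, 3 were at least 2-fold higher and 6 lower, against 9.66% and 6.78% of all measured genes, with a median of -0.08 that turned positive with library totals (0.023) and under the stroma scaling (0.19). The 3 higher were Cth, Cbs and Slc7a11, and the 6 lower Atf5, Chac1, Nupr1, Vldlr, Aldh18a1 and Pycr1. Cth and Cbs passed the expression floor only through the Cre-carrying libraries and Chac1 only through the control, so the floor favoured the direction of their calls. Between the Cre-carrying libraries, 17 were higher in the dTF-cKO and 2 lower, against 14.5% and 20.5% of all measured genes, with a median of 0.72. Of the 15 genes higher against the control, 14 were also among these 17, the exception being Cbs; Nupr1, Aars and Nars made up the rest. The comparisons share libraries, so their counts are not independent of each other. A log2 difference here is that of scaled CPM with a prior count of 2, first-named library minus second, under TMM scaling unless another is named.

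The sign of that difference depends on what the libraries are scaled to. The dTF-cKO library was rich in ribosomal protein transcripts: when the median of 81 ribosomal protein genes was set to 0, the median of all measured genes in the dTF-cKO was -1.26 against the control, and that of the 38 genes -0.60. When the median of 26 stromal genes was set to 0, the 2 medians were 2.15 and 2.80. A scaling moves all genes by about the same amount, so by construction it hardly moves the gap between the median of the 38 genes and that of all measured genes. That gap was 0.66 in dTF-cKO against control and -0.13 in cKO against control. With a floor of 20 CPM, which 33 of the 38 passed, it was 0.48 and -0.20. At least 2-fold higher in dTF-cKO than in control under all 6 scalings were 5 genes, namely Ddit3, Sesn2, Ppp1r15a, Cth and Cbs. Another 7 were above 0 under all 6, namely Atf4, Trib3, Eif4ebp1, Asns, Psph, Slc3a2 and Cars. Their smallest log2 differences over the scalings ran from 0.11 for Atf4 to 0.95 for Trib3. Chac1 and Pycr1 were the 2 genes below 0 under all 6. The shares of all measured genes that passed these rules under all 6 scalings were not computed. Under the ribosomal protein scaling alone, 5.79% of all measured genes were at least 2-fold higher in dTF-cKO than in control. Cth and Cbs, at 1.96 and 0.28 CPM in the control, passed the floor of 5 CPM only through the Cre-carrying libraries. Chac1 passed it only through the control. The directions of these calls are therefore not independent of the floor.

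**Figure D1:**
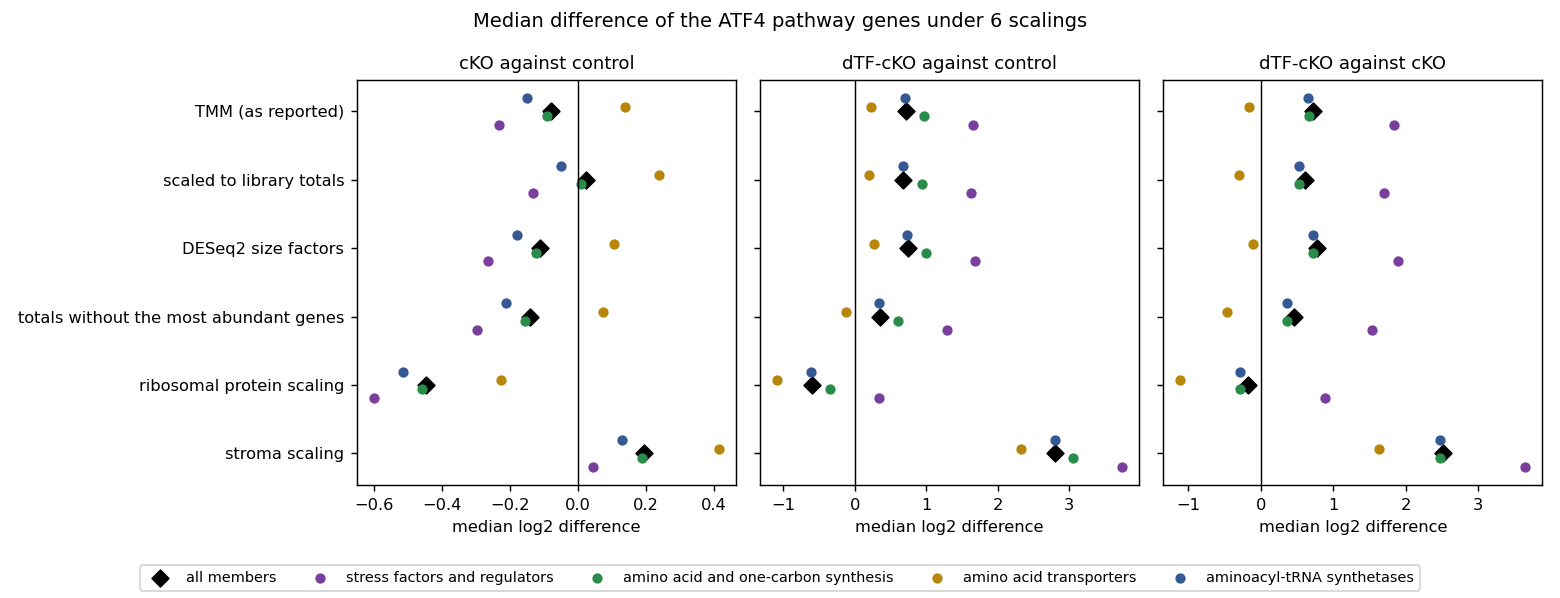
Median log2 difference (x axis) of all 38 ATF4 pathway genes (black diamonds) and of the 4 role groups (coloured points) under 6 scalings of the libraries (rows), for the 3 comparisons. The panels have different x ranges; the stress factors stay above 0 in both dTF-cKO panels under all 6 scalings, while the median of all 38 turns negative there under the ribosomal protein scaling.

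ATF4 with a C/EBP partner binds a composite element whose core is TGATGNAA, called the C/EBP-ATF response element. Those letters were searched on both strands of the 250 bases before each RefSeq gene start (GRCm38.p6, the reference for mm10). A promoter was listed for 30 of the 38 genes, and 9 of those 30 held the core, against 210 of 8796 measured genes with a listed promoter (2.39%) and 3.45% of all 32851 listed promoters. The sites of 8 of these genes are shown because they fall in members that were higher and in members that were lower. They are printed 5′ to 3′ on the strand on which the core reads as written, with the core in capitals and up to 11 bases on each side.
Asns (chr6:7693214-7693243, minus strand): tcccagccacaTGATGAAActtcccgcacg
Gars (chr6:55037960-55037989, minus strand): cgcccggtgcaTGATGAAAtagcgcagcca
Tars (chr15:11399659-11399684, plus strand): aaccagcTGATGCAAcgggactcctg
Slc7a11 (chr3:50443661-50443690, minus strand): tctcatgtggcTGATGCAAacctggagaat
Slc7a11 (chr3:50443642-50443671, plus strand): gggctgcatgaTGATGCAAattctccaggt
Chac1 (chr2:119351038-119351067, minus strand): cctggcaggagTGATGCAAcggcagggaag
Nupr1 (chr7:126625562-126625591, plus strand): caagccctgtcTGATGCAAtctggcccttt
Pycr1 (chr11:120643833-120643862, minus strand): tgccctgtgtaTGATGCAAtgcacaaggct
Vldlr (chr19:27216809-27216838, minus strand): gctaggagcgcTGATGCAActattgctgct
The Asns and Gars sites hold A at the variable base of the core and the other 7 printed hold C. Slc7a11 has 2 sites on opposite strands, which overlap in their flanks as printed. Of the 9 genes with the core, Asns was at least 2-fold higher in dTF-cKO than in control, Chac1 and Pycr1 at least 2-fold lower, and the median was -0.52. Of the 21 genes whose listed promoter lacks these letters, 11 were at least 2-fold higher and 0 were lower, and the median was 1.12. In this comparison 19.5% of all measured genes were higher and 20.9% lower. In dTF-cKO against cKO the medians were 0.66 with the core and 0.81 without it, and in cKO against control they were -0.76 and 0.00. The dTF-cKO medians against the control turned with the scaling: 1.12 became -0.18 under the ribosomal protein scaling and -0.52 became 1.55 under the stroma scaling. Of the printed sites, those of Asns, Nupr1, Tars and Vldlr overlap an annotated exon. A match is a description of these letters only, and the windows hold nothing beyond the 250 bases. The cAMP response element TGACGTCA was found in 1 of the 30 genes, Ppp1r15a, and in 3.17% of measured genes. The E-box CACGTG was found in 5, namely Aars, Aldh18a1, Cbs, Iars and Nupr1, and in 10.2% of measured genes.

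Of the 10 stress factors and regulators, 6 were highest in the dTF-cKO and 4 in the control, beside 43.0% and 30.6% of all measured genes. Atf4, the factor at the centre of the pathway (chr15:80255184-80257541 on the plus strand of mm10), had 604 counts in the control library, 448 in cKO and 1279 in dTF-cKO, or 169, 158 and 457 CPM. The dTF-cKO stood above both other libraries, at 2.7-fold higher (2.45 to 2.98) than the control, while the ratio of the cKO to the control was 0.938 (0.828 to 1.06). The log2 difference of Atf4 in the dTF-cKO was 1.43 from the control and 1.52 from the cKO. Under the ribosomal protein scaling these values fell to 0.11 and 0.57. Ddit3, which encodes CHOP, the factor that couples prolonged stress to cell death (chr10:127290774-127296288 on the plus strand), had 44 counts in the control library, 36 in cKO and 268 in dTF-cKO. It was 7.78-fold higher (5.64 to 11) in dTF-cKO than in control and 7.52-fold higher (5.30 to 11) than in the cKO. Trib3, a pseudokinase induced by ATF4 and CHOP that feeds back on both, had 21 counts in the control library, 16 in cKO and 82 in dTF-cKO and was 4.99-fold higher (3.06 to 8.48) in dTF-cKO than in control.

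The regulators of translation and growth among the members were likewise highest in the dTF-cKO. Ppp1r15a, or GADD34, the phosphatase subunit that removes the phosphate from eIF2, had 79 counts in the control library, 72 in cKO and 349 in dTF-cKO. Its level in the dTF-cKO was 5.64-fold higher (4.41 to 7.30) than in the control. Sesn2, a stress-induced sensor that restrains mTORC1, had 84 counts in the control library, 83 in cKO and 369 in dTF-cKO and was 5.61-fold higher (4.42 to 7.20) in the dTF-cKO. Eif4ebp1, the repressor of cap-dependent translation, had 176 counts in the control library, 107 in cKO and 509 in dTF-cKO, which put the dTF-cKO 3.69-fold higher (3.11 to 4.41) than the control. For all 3 genes the dTF-cKO was also at least 2-fold above the cKO under all 6 scalings.

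The other 4 stress genes were highest in the control. Chac1, an enzyme that degrades glutathione and a known target of ATF4 and CHOP (chr2:119351229-119354381 on the plus strand), had 67 counts in the control library, 3 in cKO and 6 in dTF-cKO. It was 17.7-fold lower (5.79 to 87.8) in cKO than in control and 8.74-fold lower (3.81 to 24.7) in the dTF-cKO, so it did not follow Ddit3 and Trib3. Nupr1, a small chromatin protein of the stress response, had 168 counts in the control library, 41 in cKO and 91 in dTF-cKO and was 3.24-fold lower (2.29 to 4.68) in the cKO. Vldlr, a lipoprotein receptor, had 196 counts in the control library, 64 in cKO and 96 in dTF-cKO and was 2.42-fold lower (1.82 to 3.26) in the cKO. Atf5, a relative of ATF4 with similar translational control, had 325 counts in the control library, 118 in cKO and 195 in dTF-cKO and was 2.18-fold lower (1.76 to 2.71) in the cKO. In the dTF-cKO, Atf5, Nupr1 and Vldlr had log2 differences of -0.38, -0.52 and -0.67 from the control, which turned positive under the stroma scaling. Over the 10 stress genes, 6 were at least 2-fold higher in dTF-cKO than in control and 1 lower (median 1.65), beside 19.5% and 20.9% of all measured genes. In the cKO, 0 were higher and 4 lower, beside 9.66% and 6.78% (median -0.23, turning to 0.046 under the stroma scaling). Between the Cre-carrying libraries 7 of 10 were at least 2-fold higher in the dTF-cKO, beside 14.5% of all measured genes. The other 3 were Atf5 and Vldlr, at 0.73 and 0.59 under TMM scaling but -0.21 and -0.35 under the ribosomal protein scaling, and Chac1, whose ratio of 2.02 (0.431 to 12.5) rests on 3 and 6 counts.

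**Figure D2:**
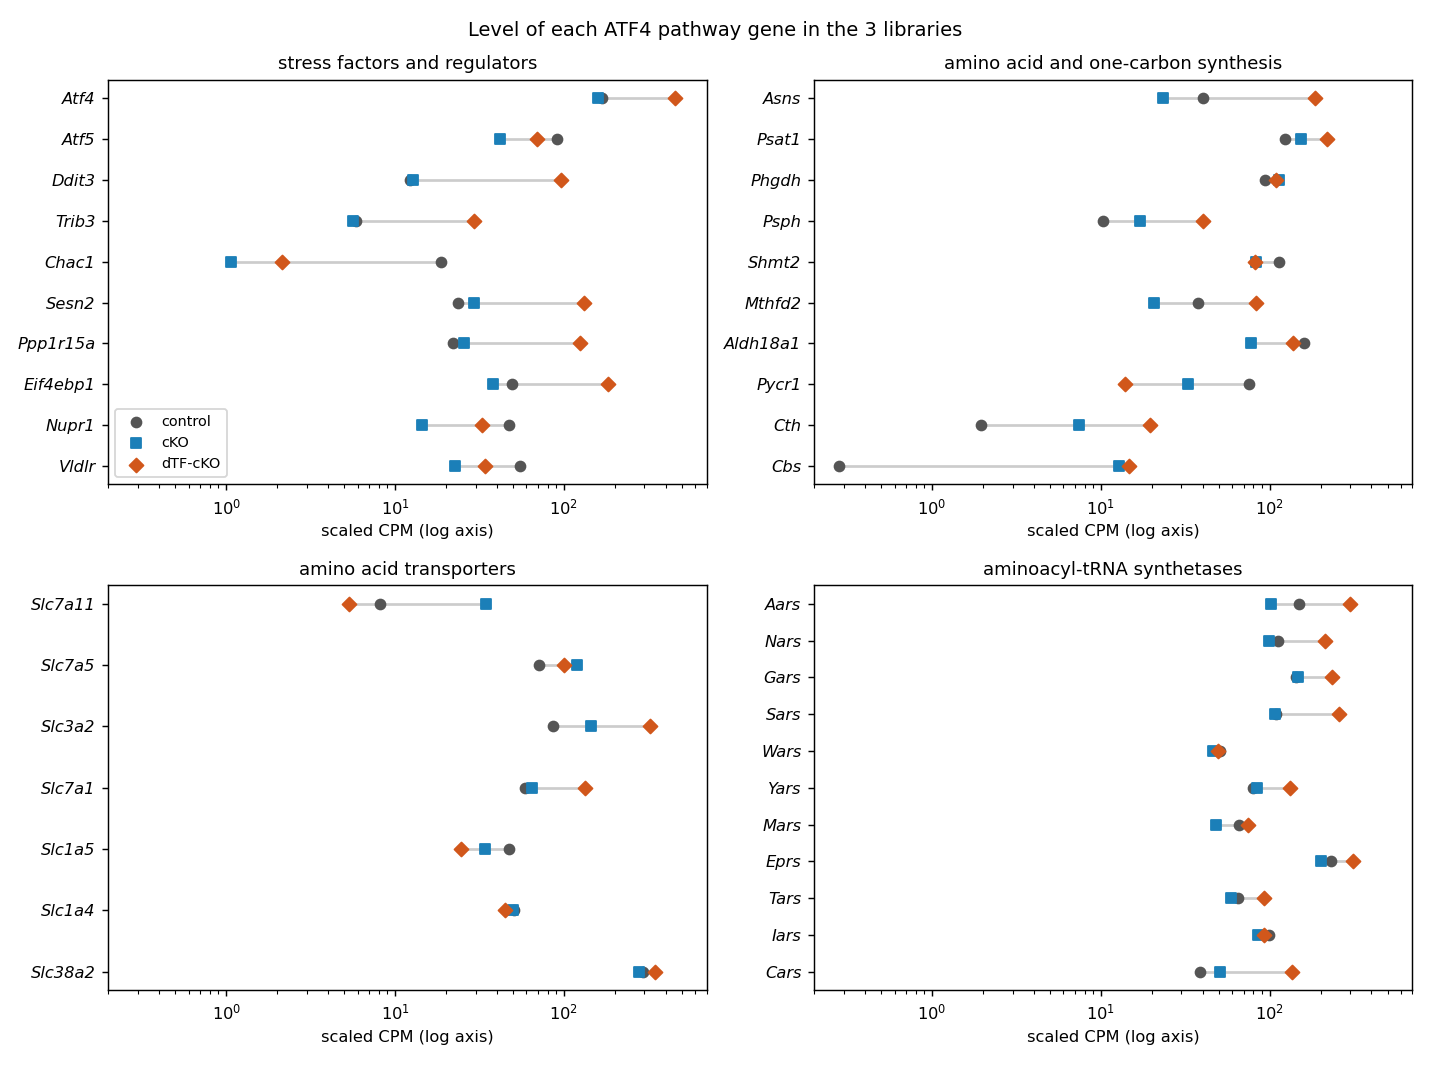
Scaled CPM on a log axis for each of the 38 genes in the control (circles), cKO (squares) and dTF-cKO (diamonds) libraries, 1 library each, in 4 panels by role. The dTF-cKO is the rightmost point for Atf4, Ddit3, Trib3, Sesn2, Ppp1r15a and Eif4ebp1, and the control for Chac1, Atf5, Nupr1 and Vldlr; the Cbs point of the control rests on 1 count.

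Enzymes of amino acid synthesis did not move as a block. Asns, asparagine synthetase, the classic gene of the amino acid response (chr6:7675169-7693254 on the minus strand), had 143 counts in the control library, 66 in cKO and 518 in dTF-cKO. The dTF-cKO was the highest library and the cKO the lowest, with ratios to the control of 4.63 (3.84 to 5.61) and 0.584 (0.429 to 0.787). It was 7.93-fold higher (6.13 to 10.4) in dTF-cKO than in cKO, the largest log2 difference of the 38 genes in that comparison (2.95). Mthfd2, a mitochondrial folate enzyme, had 135 counts in the control library, 58 in cKO and 232 in dTF-cKO. It too was highest in the dTF-cKO, 4.04-fold higher (3.02 to 5.48) than the cKO, and its log2 difference from the control of 1.12 turned to -0.18 under the ribosomal protein scaling.

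The serine pathway, which turns a glycolytic intermediate into serine and then glycine, was split. Phgdh, its entry enzyme, had 337 counts in the control library, 319 in cKO and 303 in dTF-cKO. Psat1, the second step, had 440 counts in the control library, 432 in cKO and 608 in dTF-cKO. Psph, the last step, had 37 counts in the control library, 48 in cKO and 113 in dTF-cKO. Only Psph of the 3 passed 2-fold, at 3.90-fold higher (2.67 to 5.82) in dTF-cKO than in control, and Phgdh differed by less than 1.5-fold in all 3 comparisons under TMM scaling. Shmt2, which converts serine to glycine in mitochondria, had 404 counts in the control library, 235 in cKO and 230 in dTF-cKO and was highest in the control. Phgdh counts are uncertain, since transcripts of 19 other annotated genes matched it at 90% identity or more over at least 200 bases, and Psph shares 452 exon bases with Cct6a on the opposite strand.

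Of the listed members, 2 act in the synthesis of proline, an amino acid abundant in collagen. Pycr1, the last enzyme of the mitochondrial route (chr11:120635712-120643769 on the minus strand), had 271 counts in the control library, 93 in cKO and 39 in dTF-cKO. It was 2.30-fold lower (1.81 to 2.95) in cKO than in control and 5.44-fold lower (3.88 to 7.82) in the dTF-cKO. Aldh18a1, the first enzyme of that route, had 569 counts in the control library, 220 in cKO and 384 in dTF-cKO. It was 2.05-fold lower (1.75 to 2.40) in the cKO, whereas its log2 difference in the dTF-cKO was -0.21, which turned to 1.88 under the stroma scaling. The osteoblast genes, Col1a1 and Col1a2 among them, were lower in the same libraries (18.3%, 4.16% and 0.800% of counts, in the order control, cKO, dTF-cKO); their part in the levels of Pycr1 and Aldh18a1 was not tested.

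The enzymes that make cysteine from homocysteine were near 0 in the control and passed the expression floor only through the Cre-carrying libraries. Cbs, cystathionine beta-synthase, had 1 count in the control library, 36 in cKO and 41 in dTF-cKO. Its ratio to the control was 45.5 (7.67 to 1848) in the cKO and 52.4 (8.89 to 2118) in the dTF-cKO, wide intervals that follow from the single control count. Cth, cystathionine gamma-lyase, the next step and a known ATF4 target, had 7 counts in the control library, 21 in cKO and 55 in dTF-cKO. It was 3.79-fold higher (1.55 to 10.6) in cKO than in control and 10-fold higher (4.56 to 26.1) in the dTF-cKO. Both genes were higher in both Cre-carrying libraries, as were the epidermis genes (0.0160%, 2.44% and 1.36% of counts in control, cKO and dTF-cKO), whose part in this was not tested. Over the 10 synthesis enzymes, 5 were at least 2-fold higher and 1 lower in dTF-cKO than in control (median 0.97, turning to -0.34 under the ribosomal protein scaling). The shares of all measured genes were 19.5% and 20.9%. In cKO, 2 were higher and 2 lower, beside 9.66% and 6.78% of all measured genes. Their median of -0.09 turned positive with library totals and under the stroma scaling.

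Among the amino acid transporters, Slc3a2 and Slc7a1 were higher in the dTF-cKO and Slc7a11 in the cKO. Slc3a2, the heavy chain CD98 that carries several light chains to the membrane (chr19:8706882-8723369 on the minus strand), had 306 counts in the control library, 408 in cKO and 903 in dTF-cKO. It was 3.77-fold higher (3.31 to 4.31) in dTF-cKO than in control, with the cKO in between at a ratio of 1.69 (1.45 to 1.96). Its partners did not share this order. Slc7a5, or LAT1, the light chain for large neutral amino acids, had 253 counts in the control library, 338 in cKO and 281 in dTF-cKO, highest in the cKO. Slc7a11, or xCT, the light chain that exchanges cystine for glutamate, had 29 counts in the control library, 98 in cKO and 15 in dTF-cKO. The cKO held the most, 4.27-fold higher (2.80 to 6.71) than the control, and the dTF-cKO was 6.47-fold lower (3.74 to 12) than the cKO. The longest annotated Slc7a11 transcript holds 585 bases that match Tuba1b at 92.5% identity, so reads of alpha-tubulin could be split with it.

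The other 4 transporters work outside the CD98 complex. Slc7a1, or CAT1, the carrier of arginine and lysine, had 209 counts in the control library, 182 in cKO and 373 in dTF-cKO. It was 2.28-fold higher (1.92 to 2.71) in dTF-cKO than in control under TMM scaling, a difference that turned to a log2 value of -0.13 under the ribosomal protein scaling. Slc38a2, or SNAT2, a glutamine and alanine carrier with an ATF4-responsive intron, had 1048 counts in the control library, 792 in cKO and 965 in dTF-cKO, the most of the 7 in each library. Slc1a5, the glutamine exchanger ASCT2, had 168 counts in the control library, 96 in cKO and 69 in dTF-cKO, and Slc1a4, the related ASCT1, had 180 counts in the control library, 142 in cKO and 125 in dTF-cKO. Neither passed 2-fold in any comparison, and both were lowest in the dTF-cKO under TMM scaling. Of the 7 transporters, 2 were at least 2-fold higher and 0 lower in dTF-cKO than in control, beside 19.5% and 20.9% of all measured genes. The higher count is thus not far from the background. The transporters' median of 0.23 turned to -1.08 under the ribosomal protein scaling, and was also below 0 with totals that leave out the most abundant genes.

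The 11 tRNA synthetases, which load amino acids onto their tRNAs, mostly differed by less than 2-fold. Between the dTF-cKO and the cKO all 11 were above 0 under TMM scaling, with a median of 0.66 that turned to -0.29 under the ribosomal protein scaling. Of these, 4 were at least 2-fold higher, beside 14.5% of all measured genes. Between the dTF-cKO and the control 9 of 11 were above 0 (median 0.70, or -0.61 under the ribosomal protein scaling). There 2 were at least 2-fold higher, near the 19.5% of all measured genes. In the cKO against the control 0 of 11 passed 2-fold in either direction, beside 9.66% of all measured genes upward and 6.78% downward. In that comparison 8 were below 0 (median -0.15, turning to 0.13 under the stroma scaling). Cars, which charges tRNA with cysteine, had 138 counts in the control library, 144 in cKO and 378 in dTF-cKO and was 3.50-fold higher (2.87 to 4.28) in dTF-cKO than in control. Sars, for serine, had 389 counts in the control library, 304 in cKO and 720 in dTF-cKO and was 2.36-fold higher (2.09 to 2.68). Aars, for alanine, had 536 counts in the control library, 289 in cKO and 837 in dTF-cKO, just short of the 2-fold rule at a log2 difference of 0.99, as was Nars, for asparagine, at 0.93 (398 counts in the control library, 281 in cKO and 594 in dTF-cKO). Both passed it against the cKO, at 2.93-fold higher (2.56 to 3.36) and 2.14-fold higher (1.85 to 2.47). At the other end, Wars, for tryptophan, had 182 counts in the control library, 131 in cKO and 138 in dTF-cKO, and Iars, for isoleucine, 353 counts in the control library, 240 in cKO and 259 in dTF-cKO; their intervals of the ratio included 1 in all 3 comparisons. Eprs, for glutamate and proline, was the most abundant synthetase by count (829 counts in the control library, 565 in cKO and 871 in dTF-cKO). Gars, for glycine, was highest per kilobase of exon, at 45.8, 47.2 and 74.8 CPM per kilobase. That length joins all annotated exons of a gene, at 3119 bases for Gars, 9282 for Aars and 18102 for Eprs. Lengths of the expressed transcripts were not used, so this order holds for the joined length only. Gars, Yars, Mars, Eprs and Tars had log2 differences from 0.17 to 0.72 between dTF-cKO and control, all above 0 against cKO as well. The tyrosine enzyme Yars had 285 counts in the control library, 239 in cKO and 368 in dTF-cKO, the methionine enzyme Mars 235 counts in the control library, 135 in cKO and 207 in dTF-cKO, and the threonine enzyme Tars 233 counts in the control library, 166 in cKO and 260 in dTF-cKO. Aars shares 1326 exon bases with Exosc6 on the same strand and Mars 68 with Ddit3 on the opposite strand, and the counting of shared bases is not given in the sources used here.

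**Figure D3:**
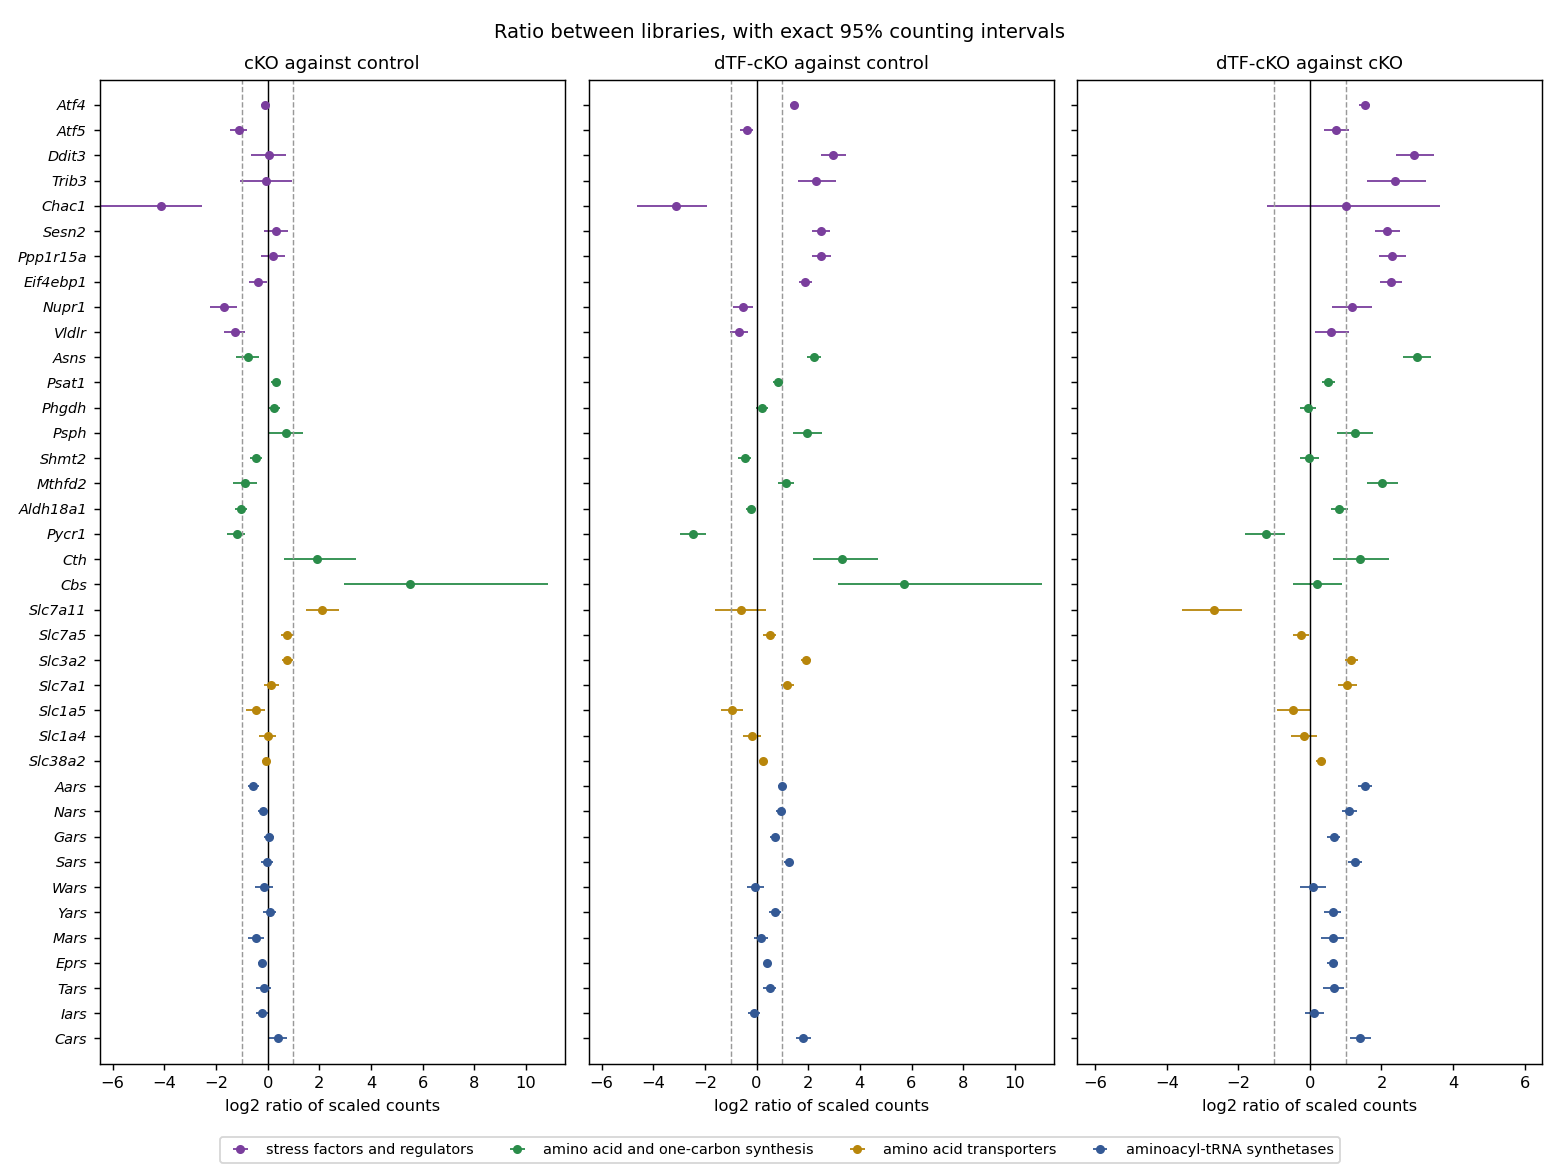
Log2 ratio of scaled counts (x axis, no prior count) for the 38 genes, coloured by role, in the 3 comparisons, with horizontal bars for the exact 95% counting interval and dashed lines at 2-fold. Under the TMM scaling shown, the synthetases cluster near 0 in cKO against control and to the right of 0 in dTF-cKO against cKO. Their median log2 difference in dTF-cKO against cKO turns to -0.29 under the ribosomal protein scaling. The widest bars belong to genes with few counts in a library, Cbs (1 in the control) and Chac1 (3 in the cKO).

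Cytosolic synthetases outside the list gave a second set of the same kind of enzyme, although Lars and Vars among them are also on the list of other reported ATF4 targets below. Of 9 others, 0 passed 2-fold in dTF-cKO against control in either direction, and the median was 0.03 (below 0 under the ribosomal protein scaling and without the most abundant genes), beside 0.70 for the 11 listed. Of all measured genes 19.5% passed it upward and 20.9% downward. Against cKO, 0 of 9 passed 2-fold upward, beside 14.5% of all measured genes. The median there was 0.0024, which took the other sign under 3 of the 5 other scalings. Kars, for lysine, had 573 counts in the control library, 367 in cKO and 443 in dTF-cKO, and Vars, for valine, 558 counts in the control library, 428 in cKO and 389 in dTF-cKO. The lists were compared by their values only, and no test of the difference between them was made.

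Genes that act upstream of ATF4 were also measured. The 16 genes for eIF2 kinases and eIF2 machinery had a median of 0.34 in dTF-cKO against control. It turned to -0.96 under the ribosomal protein scaling and was also below 0 without the most abundant genes. Of the 16, 2 were at least 2-fold higher and 0 lower, beside 19.5% and 20.9% of all measured genes, so the higher count is not far from the background. Those 2 were Eif2s2, the beta subunit of eIF2, with 256 counts in the control library, 297 in cKO and 826 in dTF-cKO, and Eif2b3, a subunit of its exchange factor, with 31 counts in the control library, 55 in cKO and 64 in dTF-cKO. None of the 4 kinases passed 2-fold. Eif2ak3, or PERK, had 183 counts in the control library, 117 in cKO and 144 in dTF-cKO, Eif2ak4, or GCN2, 115 counts in the control library, 84 in cKO and 82 in dTF-cKO, Eif2ak2, or PKR, 47 counts in the control library, 39 in cKO and 52 in dTF-cKO, and Eif2ak1, the haem-regulated kinase, 142 counts in the control library, 116 in cKO and 58 in dTF-cKO. The kinases were chosen for mention after their values had been seen, and their mRNA levels do not measure kinase activity. Eif2s3x, the X-linked gamma subunit, had 194 counts in the control library, 74 in cKO and 179 in dTF-cKO, and its Y-linked copy Eif2s3y 0, 92 and 134.

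The next list holds factors that pair with ATF4 or share its DNA-binding class, and also Ddit4, an mTORC1 inhibitor that is no such factor. Of its 11 genes, 6 were at least 2-fold higher in dTF-cKO than in control and 1 lower (median 1.30, or -0.0068 under the ribosomal protein scaling). The shares of all measured genes were 19.5% and 20.9%. Ddit4, which is also on the hypoxia list, was 1 of the 6, with 256 counts in the control library, 192 in cKO and 643 in dTF-cKO. Without it, 5 of 10 were higher and 1 lower, with a median of 1.12, or -0.16 under the ribosomal protein scaling. Atf3, induced by ATF4 and by many other stresses, had 14 counts in the control library, 11 in cKO and 251 in dTF-cKO and was 22.9-fold higher (13.4 to 42.5) in the dTF-cKO. It passed the expression floor through the dTF-cKO alone and is also on the list of immediate early genes below. Cebpb, a C/EBP factor of stress and differentiation, had 34 counts in the control library, 129 in cKO and 175 in dTF-cKO, higher in both Cre-carrying libraries. Cebpa, a C/EBP factor also expressed in epidermis and fat, had 27 counts in the control library, 279 in cKO and 116 in dTF-cKO, highest in the cKO. Jdp2, a repressor of this class, was lowest in the dTF-cKO, with 237 counts in the control library, 88 in cKO and 50 in dTF-cKO. Cebpg, a C/EBP partner of ATF4 chosen for mention after its values had been seen, had 132 counts in the control library, 98 in cKO and 257 in dTF-cKO and was 2.49-fold higher (2.01 to 3.09) in the dTF-cKO.

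Other genes reported as ATF4 targets differed in both directions, as the members did. Of this list, Cebpb, Lars and Vars are also on lists above and Herpud1 on that of the unfolded protein response. Of 24, 19 were measured, of which 7 were at least 2-fold higher in dTF-cKO than in control and 2 lower (median 0.75, turning to -0.57 under the ribosomal protein scaling). The shares of all measured genes were 19.5% and 20.9%. In the cKO, 2 were higher and 2 lower, near the 9.66% and 6.78% of all measured genes. Stc2, a secreted glycoprotein, had 15 counts in the control library, 31 in cKO and 121 in dTF-cKO and was 10.3-fold higher (6.01 to 19.0) in the dTF-cKO. It passed the expression floor only through the Cre-carrying libraries. Ero1l, an oxidase that forms disulfides in the endoplasmic reticulum, had 90 counts in the control library, 113 in cKO and 465 in dTF-cKO and was 6.60-fold higher (5.26 to 8.37). Rhbdd1, an intramembrane protease, had 37 counts in the control library, 55 in cKO and 222 in dTF-cKO. Pck2, the mitochondrial PEP carboxykinase, and Aldh1l2, a mitochondrial folate enzyme, were lower in both Cre-carrying libraries, with 322, 97 and 54 counts and 216, 32 and 53 counts in the control, cKO and dTF-cKO. These 2 were, with Chac1 and Pycr1, the genes at least 2-fold lower than the control in the dTF-cKO among the members and this list.

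Other stress programmes were measured beside these genes. Of 18 genes of the unfolded protein response, 5 were at least 2-fold higher in dTF-cKO than in control and 0 lower (median 0.59, turning to -0.72 under the ribosomal protein scaling). Of all measured genes 19.5% were higher and 20.9% lower, so the 5 are not far from the background. Hspa5, or BiP, the main chaperone of the endoplasmic reticulum, had 2272 counts in the control library, 1449 in cKO and 8126 in dTF-cKO and was 4.57-fold higher (4.36 to 4.79) in the dTF-cKO. Hyou1, another chaperone, was 2.96-fold higher (2.69 to 3.27), from 580, 345 and 1346 counts in the control, cKO and dTF-cKO. In the cKO against the control, 16 of the 18 were below 0 (median -0.30). None passed 2-fold in either direction, beside 9.66% of all measured genes upward and 6.78% downward.

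Hypoxia and glycolysis genes, immediate early genes and heat shock genes had medians of 2.39, 1.93 and 1.69 in the dTF-cKO against the control, above 0 under all 6 scalings. At least 2-fold higher were 11 of 13, 11 of 15 and 7 of 10, beside 19.5% of all measured genes. In the cKO against the control the medians were 0.99, 0.65 and 0.32, the last turning to -0.044 under the ribosomal protein scaling. Slc2a1, the glucose transporter GLUT1, led the hypoxia list with 285 counts in the control library, 887 in cKO and 6660 in dTF-cKO. Replication and mitosis genes had a median of -0.44 in the dTF-cKO against the control, which turned to 1.63 under the stroma scaling. Of these 16, 0 passed 2-fold upward and 6 downward, beside 19.5% and 20.9% of all measured genes. The part of these programmes, of the epidermal and erythroid genes and of sex-linked expression in the levels of the ATF4 pathway genes was not tested.

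**Figure D4:**
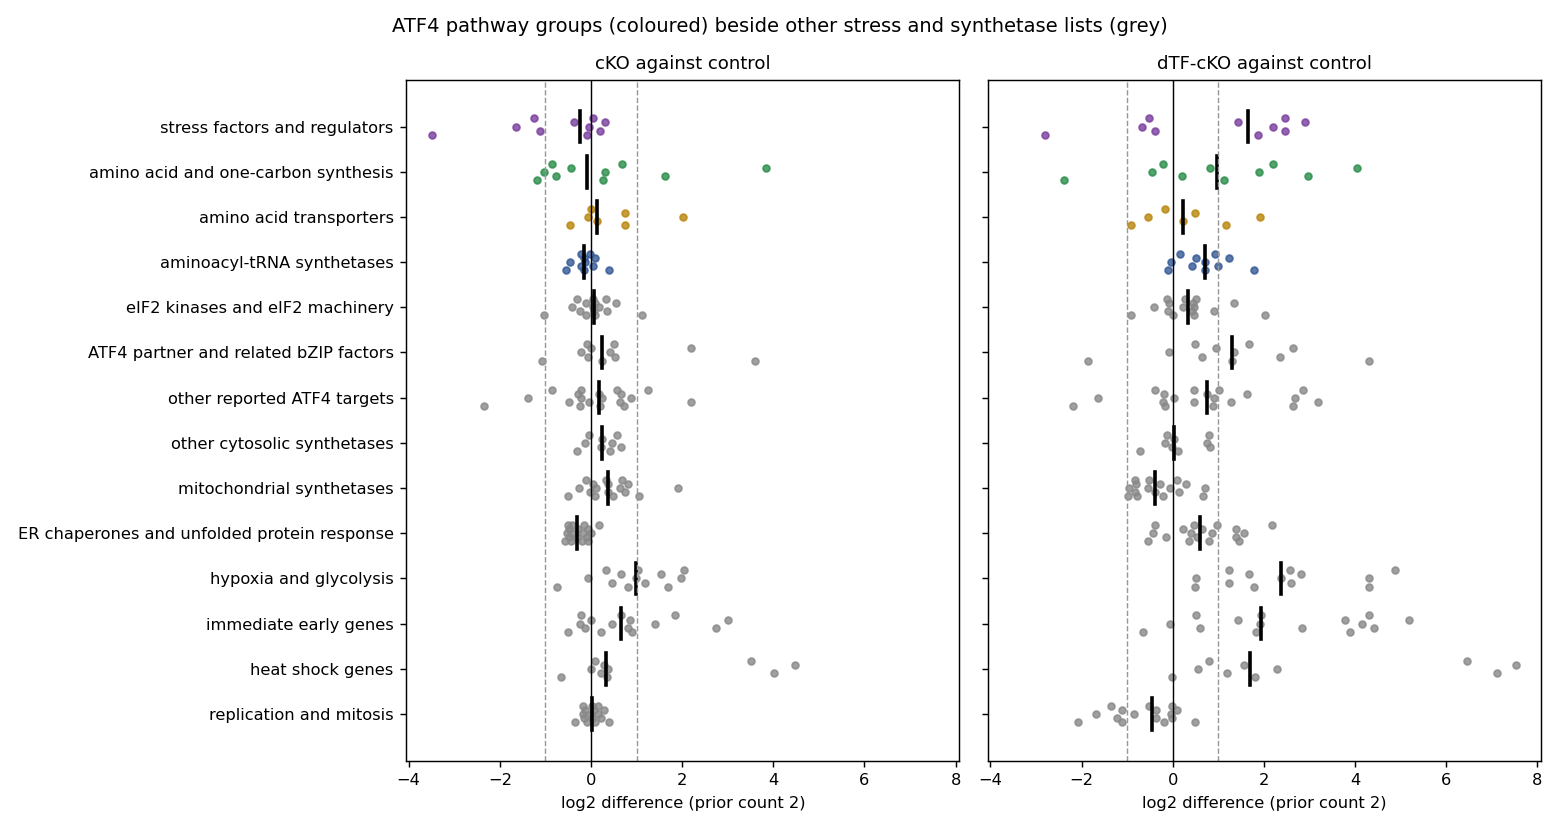
Log2 difference from the control of each measured gene (points) and the list median (black bars) for the 4 role groups of ATF4 pathway genes (coloured) and 10 other lists (grey), in the cKO (left) and dTF-cKO (right), under TMM scaling. Dashed lines mark 2-fold. In the dTF-cKO the medians run from -0.44 for replication and mitosis to 2.39 for hypoxia and glycolysis; under the ribosomal protein scaling the right-hand medians of 8 lists that are above 0 here turn negative.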

How the data were processed

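The authors deposited 1 table of raw read counts per gene symbol for each library, whole numbers with no normalisation, per the file headers. Libraries of polyA RNA came from the Ion Total kit for RNA-Seq, per the labels' protocols. Per the submitters' processing notes the build used was mm10; the sources used here do not give the aligner, counting tool, annotation or strand. Positions and exon lengths come from GENCODE vM21 (GRCm38), which matched 39443 of 43280 symbols. Another 27 symbols had been turned into dates and held at most 0.180% of counts.

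Counts were scaled with TMM factors (0.984, 1.06 and 0.963 for control, cKO and dTF-cKO) in edgeR 4.0.16 under R 4.3.3. Log2 CPM used a prior count of 2, the floor was a mean of 5 CPM, and genes past a log2 difference of 1 in size were called higher or lower. Folds are ratios of scaled counts with exact conditional (Clopper-Pearson) 95% intervals. The labels record no molecular identifiers, and PCR copies are not independent molecules, so the intervals and the limit at 0 describe counting error alone. With 1 library per group no test of a genotype was made. The code for calls and intervals was checked on simulated counts with known ratios, which bears on the code and not on these libraries. Alternatives were scaling to totals, DESeq2 1.42.0 size factors, totals without the 33 genes that make up the 20 most abundant of each library, ribosomal protein and stroma scalings, prior counts of 0.5 and 10, no floor and a floor of 20 CPM, size rules of 1.5-fold and 3-fold, and intervals that exclude 1. Named were all members at least 2-fold different, the 2 most abundant of each role, and up to 4 genes of each other list. The members, lists and rules were chosen with earlier results of these data known. Promoters are RefSeq's (GRCm38.p6). The sequence of 1 promoter site is not reported here.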

Additional observations from a re-analysis of the deposited data

How the results depend on the processing

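Each value of the 38 genes was recomputed under 12 alternatives. The ribosomal protein scaling put the medians of the 38 genes at -0.45 for cKO against control, -0.60 for dTF-cKO against control and -0.17 for dTF-cKO against cKO, and turned Mthfd2, Slc7a1 and Sars in the dTF-cKO against the control to -0.18, -0.13 and -0.080. Under it, 5 were at least 2-fold higher and 15 lower in dTF-cKO than in control, and 7 higher and 6 lower than in the cKO, against 5.79%, 59.2%, 3.39% and 48.0% of all measured genes, whose medians moved as well. The stroma scaling put the medians at 0.19, 2.80 and 2.51 in the same order, with 5 higher and 2 lower in cKO than in control, against 14% and 4.69% of all genes, and 36 higher and 0 lower in both comparisons of the dTF-cKO, where 81.2% (against control) and 76.1% (against cKO) of all genes were higher; it turned Pycr1 to 0.57 between the Cre-carrying libraries. Totals without the most abundant genes gave 4 lower in dTF-cKO than in control (29.2% of all genes), and 11 higher than in the cKO (9.26%) with a median of 0.46. A floor of 20 CPM, which leaves 33 of the 38, gave 0 higher in the cKO (8.48% of all genes), and 1 lower in each comparison of the dTF-cKO (15.4% against control, 14.7% against cKO). The 1.5-fold rule gave 6 higher in cKO than in control (18.1% of all genes), 4 lower in dTF-cKO than in control (29.5%) and 26 higher than in the cKO (26.7%). The 3-fold rule gave 2 lower in the cKO (3.15%), and 7 higher and 1 lower in dTF-cKO than in cKO (5.85% and 12.5%). Counting intervals that exclude 1 gave 9 higher and 14 lower in cKO than in control, 24 and 8 in dTF-cKO than in control, and 27 and 4 in dTF-cKO than in cKO. The shares of all genes were 25.1% and 19.2%, 37.5% and 32.2%, and 33.9% and 32.5%, so the 9 higher in cKO are near the background. The other 65 of 99 recomputed counts and medians stayed within 1.5 times the count, or for medians within the 95% order-statistic interval over the 38 genes. No paired analysis was possible because each genotype has 1 library; for the same reason no library could be left out. Depth limits Cbs, Cth, Chac1, Slc7a11 and Trib3, each with under 30 counts in a library.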

Other observations

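The 17 mitochondrial tRNA synthetases did not follow the cytosolic ones on the list. In dTF-cKO against control, 0 passed 2-fold upward and 0 downward, beside 19.5% and 20.9% of all measured genes. The median was -0.38, which turned to 1.58 under the stroma scaling. Against the cKO, 5 of 17 were at least 2-fold lower, among them Lars2, for leucine, and Pars2, for proline, beside 20.5% of all measured genes. That count was 15 under the ribosomal protein scaling and 1 under the stroma scaling, beside 48% and 4.13% of all measured genes. Lars2 stood apart from the rest in level, with 6770 counts in the control library, 19979 in cKO and 2708 in dTF-cKO, against at most 181 counts for any other mitochondrial synthetase in any library. It was 3.73-fold higher (3.63 to 3.84) in cKO than in control and 7.30-fold lower (7.02 to 7.61) in dTF-cKO than in cKO. Only the members were searched for near-identical transcripts, so whether reads of other sequences add to the Lars2 counts is not known.

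Of the reported ATF4 targets, 5 stayed under the expression floor, and these were chosen for mention once their values had been seen. Fgf21, a stress hormone, had 3, 0 and 21 counts in the control, cKO and dTF-cKO. Slc7a3, the cationic amino acid carrier CAT3, had 6, 2 and 32 counts, Adm2 3, 5 and 31 counts, and Gdf15, a stress cytokine, 6, 4 and 13 counts. The dTF-cKO was the highest library for these 4, as it was for 43.0% of all genes above the floor. For Gdf15 the interval of the ratio to the control included 1, at 2.77 (0.981 to 8.88). Slc3a1, a heavy chain of another amino acid carrier, had 0, 3 and 2 counts.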
